A study of Mus musculus with 48 samples.

Results

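The genes described here are 10 genes of cytotoxic lymphocytes, the granzymes Gzma, Gzmb, Gzmc, Gzmd, Gzme and Gzmk, the pore former Prf1, the granule protein Nkg7, the death ligand Fasl and the cytokine Ifng. They were chosen by name, as the genes of the table that carry these symbols, and make up 10 of its 36854 genes. All 10 had at least 1 count in each of the 48 tumours and passed the filter on low counts in each fit that gives the results below, so each of them is reported.

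The tumours were sarcomas of the mouse hind limb, profiled by bulk RNA-seq, in 8 groups. Primary tumours (32, 8 per group) were induced in p53FL/FL mice on a 129/SvJae background, 6 to 10 weeks old, by an intramuscular injection of Adeno-Cre, which deletes p53 at the injected site, followed by 300 µg of the carcinogen MCA. Allografts (16, 4 per group) grew from 50000 cells of the single line 402230, injected into the gastrocnemius of syngeneic mice. Each kind of tumour was treated at about 150 mm3 with 200 µg of the anti-PD-1 antibody muDX400 or of an isotype control, followed by 0 or 20 Gy to the limb, and was harvested after 3 days. All 4 treatment groups of a kind therefore share the tumour model and received an antibody, and all 16 allografts share 1 line, whereas each primary tumour arose on its own.

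Cytotoxic T cells and natural killer (NK) cells kill by releasing granules: perforin opens the way through the membrane of the target cell, and granzymes, which are serine proteases, cleave proteins inside it. Fas ligand triggers death from outside through the receptor Fas, and interferon gamma acts on the target and its surroundings through a receptor that signals by JAK kinases. Blockade of PD-1 removes a brake on T cells, and granzyme B is widely used as a readout of their activity. Transcripts of the members can come from T cells and NK cells alike, and in a bulk sample fewer cells of a type and less RNA per cell cannot be told apart.

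On the GRCm38 build and in the GENCODE M21 annotation, Gzmb (chr14:56258838-56262260, minus strand), Gzmc (chr14:56231441-56234656), Gzmd (chr14:56129556-56132608) and Gzme (chr14:56117626-56120625) lie within 145 kb that hold 7 granzyme genes, all on the minus strand. Gzma (chr13:113093825-113100981) and Gzmk (chr13:113171608-113225908) are neighbours on chromosome 13. The 250 bases before the start of Gzmb, Gzmc, Gzmd, Gzme and, from the other locus, Gzma are shown because the members split along this line in the primary tumours, with Gzmc, Gzmd and Gzme forming a block apart from Gzmb and Gzma; in the 16 allografts 1 of the 3 pairs of that block passed. They are RefSeq sequences of GRCm38.p6, read 5′ to 3′ on the minus strand at chr14:56262335-56262584, chr14:56234658-56234907, chr14:56132594-56132843, chr14:56120626-56120875 and chr13:113100982-113101231. Capitals mark matches to a RUNX core (TGTGGT, or ACCACA on the other strand) and, in Gzmb, to an AP-1 core (TGANTCA).
Gzmb: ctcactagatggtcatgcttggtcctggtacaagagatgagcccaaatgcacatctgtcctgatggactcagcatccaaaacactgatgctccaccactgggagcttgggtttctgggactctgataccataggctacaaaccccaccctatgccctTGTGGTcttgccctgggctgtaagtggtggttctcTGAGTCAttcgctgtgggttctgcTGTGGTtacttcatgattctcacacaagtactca
Gzmc: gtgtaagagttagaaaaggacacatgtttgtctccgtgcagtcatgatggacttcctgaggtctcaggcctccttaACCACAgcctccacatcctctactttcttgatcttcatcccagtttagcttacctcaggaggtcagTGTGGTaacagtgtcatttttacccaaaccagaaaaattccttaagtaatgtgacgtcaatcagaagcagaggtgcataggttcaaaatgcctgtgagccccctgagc
Gzmd: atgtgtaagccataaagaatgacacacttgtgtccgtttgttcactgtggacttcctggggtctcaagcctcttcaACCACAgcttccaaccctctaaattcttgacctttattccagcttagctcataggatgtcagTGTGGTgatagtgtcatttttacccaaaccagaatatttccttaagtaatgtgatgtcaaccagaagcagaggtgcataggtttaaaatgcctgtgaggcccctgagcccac
Gzme: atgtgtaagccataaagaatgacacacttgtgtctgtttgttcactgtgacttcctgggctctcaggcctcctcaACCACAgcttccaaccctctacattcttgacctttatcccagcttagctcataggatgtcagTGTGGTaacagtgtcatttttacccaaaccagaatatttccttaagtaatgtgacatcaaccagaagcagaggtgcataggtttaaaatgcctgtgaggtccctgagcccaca
Gzma: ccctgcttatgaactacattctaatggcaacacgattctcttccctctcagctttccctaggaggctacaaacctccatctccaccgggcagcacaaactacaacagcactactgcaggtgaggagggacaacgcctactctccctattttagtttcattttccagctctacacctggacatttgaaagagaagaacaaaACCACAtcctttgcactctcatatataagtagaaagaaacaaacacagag

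The sequences before Gzmd and Gzme were identical in 238 of 251 aligned columns (94.8%), and those before Gzmc and Gzmd in 80.5%. The sequence before Gzmb shared 47.5% of aligned columns with that of Gzmc, 45% with Gzmd and 44.1% with Gzme, close to the 45.4% it shared with Gzma, a gene of another chromosome. The RUNX core was found before 7 of the 10 members (Gzma, Gzmb, Gzmc, Gzmd, Gzme, Prf1 and Nkg7) and in 14% of 32851 mouse promoters of the same length. The AP-1 core was found before Gzmb among the members and in 6.75% of promoters. These are 2 of 6 motifs searched on both strands. The others were a GAS element (TTCNNNGAA; Nkg7 and Ifng, and 7.02% of promoters), a T-box core (TCACACC; Gzmk and Nkg7, 3.33%), an NFAT core (GGAAAA; Gzma and Fasl, 20.4%) and TATAAA (Ifng, 12.4%). A link of these sequences or matches to the levels of the members was not tested. A match is a string of letters in this window, not a shown site, and the RefSeq and GENCODE starts can differ. The bases that follow the RefSeq start were not found in the first part of a GENCODE transcript for Gzmb, Gzmc, Gzmk and Prf1, and the window shown for Gzmd reaches into the gene as GENCODE has it.

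The likeness extends to the transcripts. Of 50-base windows of the exons, 21.9% in Gzmd, 20.6% in Gzme and 4.14% in Gzmc also occur in another gene of the annotation, against 0 of the windows in Gzma, Gzmb and Gzmk. With 100-base windows the share was 0.231% in Gzmd and 0 in Gzmc and Gzme. Counts of Gzmd and Gzme are therefore uncertain to the extent that short reads fall in shared stretches.

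Levels are given as CPM (counts scaled to a common library size) on library sizes adjusted with TMM, edgeR's standard scaling, and each tumour held between 31.8 M and 54 M counts (median 41.2 M, M standing for mega). The lowest count of a member was 1, for Ifng in a primary tumour, and the highest was 16156, for Gzmb in an allograft. T cell and NK cell markers were present in each tumour: the summed level of 8 T cell markers ran from 6.04 to 288 CPM over the primary tumours and from 45.8 to 232 CPM over the allografts, and that of 6 NK cell markers from 4.89 to 180 CPM and from 15.2 to 140.8 CPM. Genes of muscle, the tissue around the tumours, summed to between 6.90 and 42290 CPM over all tumours.

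Between genes, levels were compared as the group median per kilobase of exon. In the allografts given 0 Gy with isotype the order began with Gzmb (28.5 CPM per kb), Nkg7 (20.4) and Gzmd (15.4) and ended with Gzmk (3.08), Fasl (1.21) and Ifng (0.779). In the primary tumours given 0 Gy with isotype Gzmc (7.05 CPM per kb), Gzmb (6.22) and Nkg7 (5.65) led, and Ifng was again last (0.0531). After 20 Gy with isotype Gzmb led in both kinds, at 114.9 CPM per kb among allografts and 50.1 among primary tumours, followed by Gzma (49.7 and 35.1) and Gzmc (33.7 and 31.1). Per-tumour values within a group spread widely, as given below, and differences between neighbours in these orders were not tested.

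**Figure D1:**
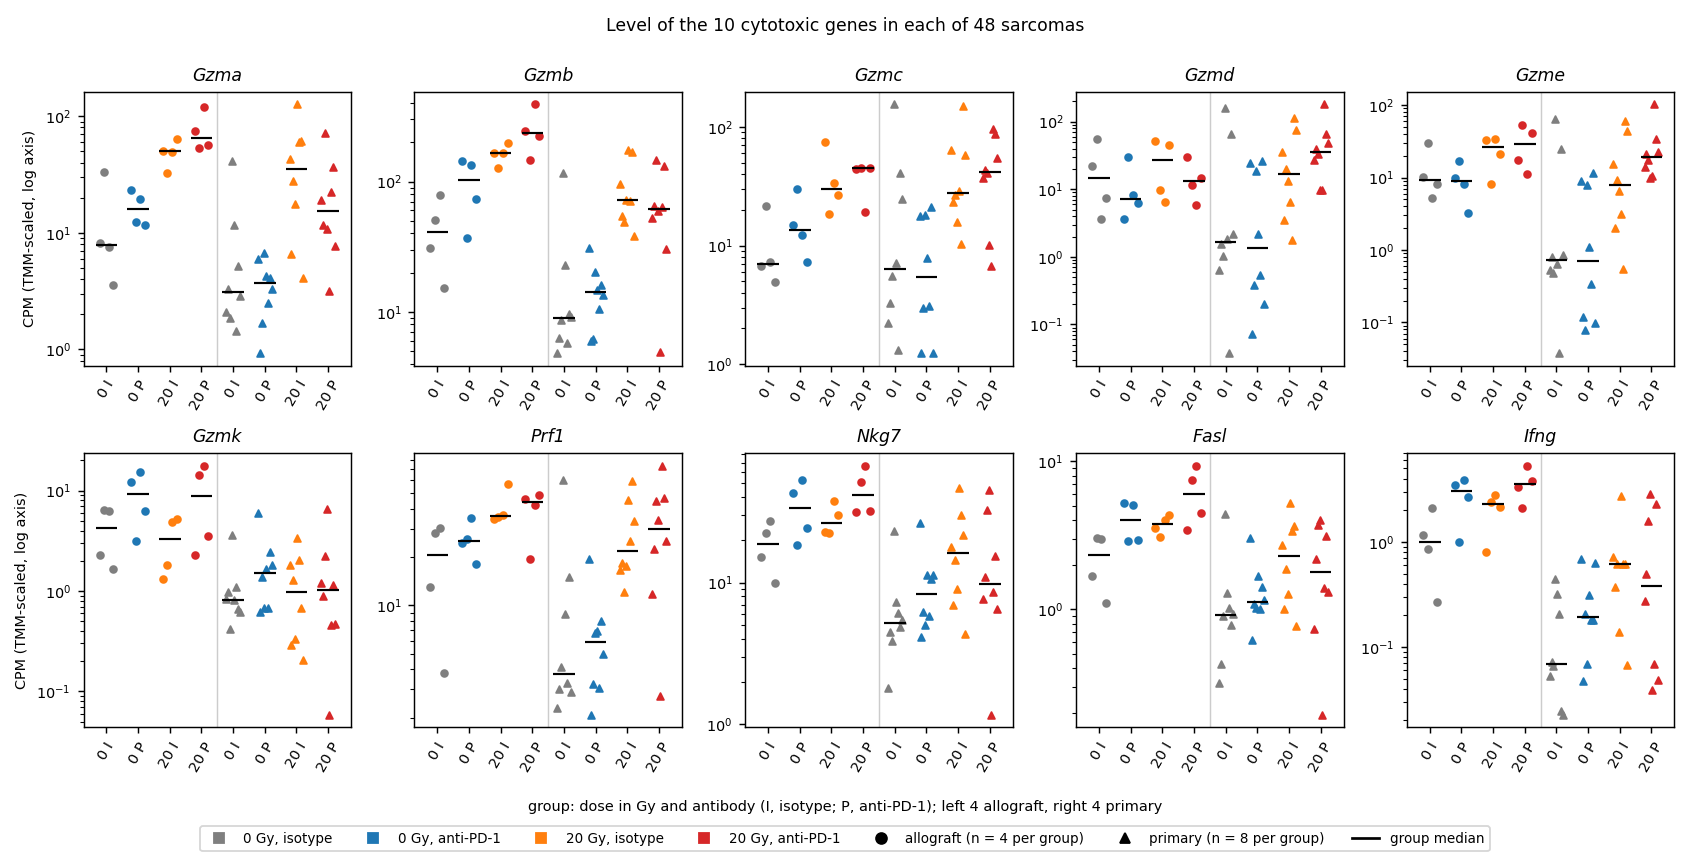
CPM (TMM-scaled, log axis) of each gene in each of 48 tumours, by tumour kind, dose in Gy and antibody (I, isotype; P, anti-PD-1), with points for tumours and bars for group medians. Gzma and Gzmb sat higher at 20 Gy than at 0 Gy in both kinds, and 1 primary tumour given 0 Gy with isotype lay at the top of its group for all 10 genes.

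The first question was what 20 Gy alone did to these genes in the allografts. Granzymes A and B rose 3.85-fold and 3.79-fold within 3 days, and the other 8 members did not pass the test. Gzmb, which cleaves caspases and Bid in the target cell, stood at 31.1, 50.8, 78.8 and 15.2 CPM in the 4 unirradiated isotype allografts and at 165, 128.2, 165 and 197 CPM in the 4 irradiated ones. Each irradiated tumour lay above each unirradiated one, and the log2 fold change was 1.92 ± 0.48 (SE; n = 4 and 4; edgeR quasi-likelihood test, Benjamini-Hochberg adjusted p = 0.0294). Gzma, a granzyme with trypsin-like activity, stood at 8.16, 32.9, 7.61 and 3.56 CPM without radiation and at 50.4, 32.4, 49.7 and 63.7 CPM with it. The groups met at 1 point, since unirradiated tumour 2 reached the lowest irradiated value, and the change was 1.94 ± 0.52 (edgeR adjusted p = 0.0445).

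The count of 2 called members of 10 compares with 5.14% of all 17746 genes tested, and the median log2 change over the members was 0.89, against 0.00 over all genes. Gzmc stood at 6.73, 21.6, 7.23 and 4.96 CPM at 0 Gy and at 74.4, 18.3, 33.8 and 26.4 CPM at 20 Gy. Its log2 fold change was as large as that of Gzma (1.94 ± 0.55), with an edgeR adjusted p of 0.0561. Perforin transcripts (Prf1) were at 13.1, 28.0, 30.3 and 3.79 CPM without and at 34.5, 35.7, 36.6 and 56.9 CPM with radiation. For Prf1 (log2 fold change 1.16 ± 0.47, edgeR adjusted p = 0.203) and Fasl (0.80 ± 0.36, adjusted p = 0.253) the groups did not overlap. With Gzmb these 3 members without overlap in the upward direction compare with 9.59% of all genes.

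With 4 tumours a group these calls rest on single tumours. No member was called without tumour 1 or 4 of the unirradiated group or without tumour 1, 3 or 4 of the irradiated group, and 1 was called (Gzmb) without unirradiated tumour 3, while the log2 fold change stayed between 1.62 and 2.94 for Gzma and between 1.62 and 2.38 for Gzmb. Calls over all genes ran from 294 to 1415 in these fits, against 912 with all tumours. The allograft groups also differed in 2 further features. The transcript Xist, taken from the same counts, was above a chosen 10 CPM in 1 of 4 unirradiated and 3 of 4 irradiated isotype tumours. The leading digit of the number in the sample title was 5 in 4 of 4 and 1 of 4. The titles do not say what this number stands for, and its leading digit is called the identifier digit below. With that digit as a covariate the log2 fold change was 1.89 ± 0.68 for Gzma and 2.21 ± 0.62 for Gzmb and neither was called, and with Xist as a covariate Gzmb and Gzmc were called.

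Under anti-PD-1 the same dose raised Gzma, the 1 member that edgeR called. Gzma went from 23.0, 12.5, 19.4 and 11.7 CPM at 0 Gy to 74.4, 52.9, 120 and 56.4 CPM at 20 Gy, with no overlap and a log2 fold change of 2.20 ± 0.53 (edgeR adjusted p = 0.0323). Gzmb went from 144.1, 37.0, 133.5 and 73.4 CPM to 246, 146, 393 and 224 CPM. The Gzmb groups did not overlap either, although its change of 1.40 ± 0.47 was not called (edgeR adjusted p = 0.108). DESeq2 called it, as did edgeR with a covariate for Cd3 genes (adjusted p from 0.0190 to 0.445 over 8 alternatives), and a difference between Gzma and Gzmb was not tested. This 1 called member compares with 3.96% of all genes, and the 2 members without overlap with 5.83%. All 10 members had a positive estimate, with a median of 0.62. Gzma was not called without unirradiated tumour 2 or 4 or irradiated tumour 3, nor with Xist as a covariate (2.01 ± 0.54), in the fit of all 48 tumours or in that of the 2 groups, where 1 of 16939 genes was called. Leaving out 1 tumour gave 184 to 1275 calls over all genes, against 703 with all tumours.

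The second question was what anti-PD-1 added in the allografts. No member was called at either dose by edgeR or by DESeq2, nor was any other of the 17746 genes (0% called). An unadjusted edgeR p below 0.05 was found for 299 genes at 0 Gy and 682 at 20 Gy. With 4 tumours a group this does not show that the members stayed unchanged. Estimates at 0 Gy were positive for 8 of 10 members. The 4 with an unadjusted p below 0.05 were Gzmb (1.12 ± 0.47), Nkg7 (0.88 ± 0.37), Fasl (0.85 ± 0.36) and Ifng (1.30 ± 0.55), each with an edgeR adjusted p of 0.9999. Ifng, the cytokine of the set, stood at 1.17, 0.848, 2.09 and 0.269 CPM with isotype and at 3.49, 1.001, 3.85 and 2.66 CPM with anti-PD-1. The groups overlapped through anti-PD-1 tumour 2, which was low for Gzmb, Gzmk, Nkg7 and Ifng.

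Gzmk marks T cells in an early effector state in many tissues. With anti-PD-1 at 20 Gy it was at 2.29, 14.2, 17.8 and 3.55 CPM, against 1.32, 1.80, 4.82 and 5.24 CPM with isotype, a log2 fold change of 1.47 ± 0.70 (edgeR adjusted p = 0.682). T cell markers had a median log2 difference of 0.78 in the same comparison, and with the mean level of Cd3d, Cd3e and Cd3g as a covariate that of Gzmk was −0.20 ± 0.27. At 20 Gy anti-PD-1 and isotype differed for Gzmb by 0.60 ± 0.46, and the 95% interval of −0.30 to 1.5 includes a change of 2-fold. The interaction of dose with antibody was not called for any gene by edgeR (0%; 269 genes at an unadjusted p below 0.05) or DESeq2. For Gzmb it was −0.52 ± 0.65, with a 95% interval from −1.79 to 0.75.

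Allografts given both 20 Gy and anti-PD-1, compared with those given neither, had 5 called members of 10, all higher, against 9.66% of all genes called. Gzma (log2 fold change 2.54 ± 0.54, edgeR adjusted p = 0.00803) and Gzmb (2.52 ± 0.49, adjusted p = 0.00518) had risen 5.82-fold and 5.74-fold. Gzmc (1.94 ± 0.55, adjusted p = 0.0370), Fasl (1.49 ± 0.36, adjusted p = 0.0175) and Nkg7 (1.27 ± 0.37, adjusted p = 0.0412) followed. Fasl, the ligand of the death receptor Fas, stood at 1.69, 3.02, 2.99 and 1.10 CPM with neither treatment and at 3.46, 7.49, 9.35 and 4.46 CPM with both. Nkg7, a membrane protein of cytotoxic granules, was at 15.1, 22.2, 27.2 and 9.91 CPM and at 31.6, 50.7, 66.8 and 31.7 CPM. In both cases every treated tumour exceeded every control, as also for Gzma, Gzmb and Ifng, and these 5 members without overlap compare with 8.94% of all genes.

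Ifng (1.73 ± 0.56, edgeR adjusted p = 0.0652) and Prf1 (1.06 ± 0.47, adjusted p = 0.182) were not called in that comparison. Gzmd was at 22.4, 55.03, 3.62 and 7.31 CPM with neither treatment and at 30.2, 11.5, 5.79 and 14.6 CPM with both, so its groups overlapped. Gzma and Gzmb were called whichever of the 8 tumours was left out, but no member was called in a fit of all 48 tumours. The count fell to 2 (Gzma and Gzmb) without control tumour 1 or 4, and to 3 without treated tumour 2 (Gzma, Gzmb and Fasl) or 3 (Gzma, Gzmb and Gzmc). Over the 8 fits 919 to 2320 of all genes were called, against 1714 with all tumours.

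**Figure D2:**
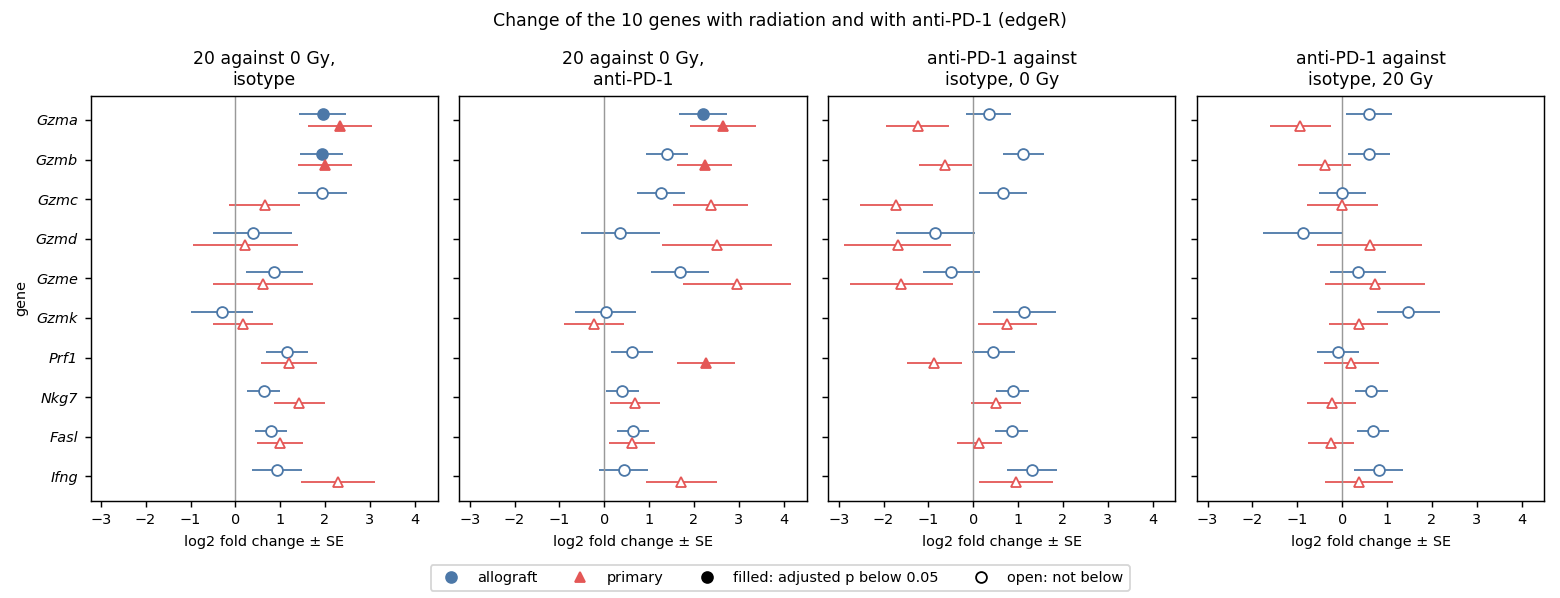
Log2 fold change ± SE (edgeR, x axis) of the 10 genes (y axis) for radiation under each antibody and for anti-PD-1 at each dose, in allografts (circles) and primary tumours (triangles), filled where the adjusted p was below 0.05. Filled points occur in the 2 radiation panels only, for Gzma, Gzmb and Prf1.

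In the primary tumours 20 Gy with isotype again raised Gzma and Gzmb, by 2.33 ± 0.72 and 2.00 ± 0.61 on the log2 scale (edgeR adjusted p = 0.0261 and 0.0247; n = 8 and 8). Gzmb ran from 4.81 through a median of 8.93 to 115.6 CPM in the unirradiated tumours and from 38.4 through 72.0 to 176 CPM in the irradiated ones. Each of the 8 irradiated tumours exceeded 7 of the 8 unirradiated ones, and only unirradiated tumour 4 stood within or above their range. Gzma ran from 1.43 through 3.09 to 41.3 CPM and from 4.06 through 35.3 to 126.9 CPM. Its groups overlapped more, since irradiated tumours 2 and 8 were at 6.59 and 4.06 CPM.

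These 2 called members of 10 compare with 14.5% of all 17770 genes. All 10 estimates were positive, with a median of 1.10 against −0.02 over all genes, and no member was without overlap (1.5% of all genes were, in the upward direction). Ifng (2.29 ± 0.82, edgeR adjusted p = 0.0586) and Nkg7 (1.43 ± 0.56, adjusted p = 0.0870) were not called. Ifng ran from 0.0227 through 0.0688 to 0.443 CPM at 0 Gy, which is 1 to 17 counts a tumour, and from 0.0681 through 0.615 to 2.71 CPM at 20 Gy.

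Unirradiated isotype tumour 4 bears on each comparison it enters. It held the highest value of its group for all 10 members, with 115.6 CPM of Gzmb, 156 CPM of Gzmc and 161 CPM of Gzmd. Without it 6 members were called for 20 Gy with isotype: Gzma, Gzmb, Prf1, Nkg7, Fasl and Ifng, and the log2 fold changes of Gzma and Gzmb became 3.47 and 3.28. Irradiated tumour 5, the highest for 6 members, acted the other way, and without it no member was called. Without irradiated tumour 8, the lowest for 6 members, 4 were called. Gzma and Gzmb were each called in 15 of 16 such fits, over which 1706 to 3091 of all genes were called, against 2575 with all 16 tumours. In a fit of only these 2 groups Gzma was not called (2.41 ± 0.80, edgeR adjusted p = 0.055, the highest of its 8 alternatives, which ran down to 0.00286).

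With anti-PD-1 radiation raised Gzma, Gzmb and Prf1 in the primary tumours, which is 3 of 10 members against 7.92% of all genes. Gzma ran from 0.927 through 3.72 to 6.73 CPM at 0 Gy and from 3.15 through 15.4 to 71.4 CPM at 20 Gy (2.64 ± 0.73, edgeR adjusted p = 0.0228). Gzmb ran from 5.92 through 14.1 to 30.9 CPM and from 4.91 through 61.6 to 146 CPM (2.24 ± 0.61, adjusted p = 0.0222). Irradiated tumour 5 was the lowest of its group for both, and for Prf1, Gzmc, Gzmd, Gzmk, Nkg7, Fasl and Ifng. Prf1 ran from 2.09 through 5.89 to 19.5 CPM and from 2.74 through 29.7 to 74.0 CPM (2.27 ± 0.64, adjusted p = 0.0263). Prf1 was not called under isotype (adjusted p = 0.198), but its interaction of dose with antibody was not called either (adjusted p = 0.971), so a difference between the antibodies is not shown.

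Gzmc, Gzmd and Gzme scattered more and were not called by edgeR, while DESeq2 called Gzmc and Gzme, and the fit of all 48 tumours and the Cd3 covariate called Gzmc. Gzmc (2.37 ± 0.83, edgeR adjusted p = 0.0745) ran from 1.24 through 5.46 to 21.3 CPM and from 6.73 through 42.1 to 96.9 CPM. Gzmd spanned 0.0713 to 25.9 CPM at 0 Gy and 9.60 to 182 CPM at 20 Gy, and Gzme 0.0777 to 11.4 and 9.81 to 103.1 CPM. Within the unirradiated isotype group Gzmd spanned 0.0376 to 161 CPM, which is 2 to 6173 counts. Of the 3 calls 1 (Prf1) was left without irradiated tumour 3, and with the identifier digit as a covariate Gzma was not called (2.50 ± 0.78, edgeR adjusted p = 0.0524, the highest of its 8 alternatives, which ran down to 0.000494). Leaving out 1 tumour gave 896 to 1928 calls over all genes, against 1407 with all tumours.

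For anti-PD-1 against isotype in the primary tumours edgeR called no member at either dose, and 0% of all genes at both. That does not show that the members stayed unchanged. An unadjusted p below 0.05 was found for 412 genes at 0 Gy and 1443 at 20 Gy. DESeq2 called 3 genes at 0 Gy and 5 at 20 Gy, none of them a member. At 0 Gy the estimates were negative for 6 members, among them Gzma (−1.24 ± 0.70, edgeR adjusted p = 0.9998) and Gzmc (−1.71 ± 0.81, adjusted p = 0.9998). Both rest on unirradiated isotype tumour 4: without it they were −0.11 and −0.39. At 20 Gy Gzma differed by −0.93 ± 0.69 (adjusted p = 0.703), with a 95% interval from −2.27 to 0.41. The interaction of dose with antibody was not called by edgeR for any gene (0%; 756 genes at an unadjusted p below 0.05, 1 gene called by DESeq2), and the lowest adjusted p among the members was 0.971.

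Primary tumours given both treatments, compared with those given neither, had 1 called member, Ifng, against 13.8% of all genes. Ifng passed the filter on low counts through the other primary tumours of the fit: with only these 2 groups it did not pass, and no member was called. Ifng ran from 0.0391 through 0.384 to 2.83 CPM with both treatments, against the low values of the controls given above, and the log2 fold change was 2.66 ± 0.83 (edgeR adjusted p = 0.0302). The 8 treated tumours fell into a group of 3 at 1.57 CPM or more (tumours 3, 4 and 7) and 3 at or below 0.0686 CPM. Gzmb (1.61 ± 0.60, adjusted p = 0.0682) and Gzma (1.40 ± 0.70, adjusted p = 0.175) were not called. Without control tumour 4 there were 5 called members (Gzma, Gzmb, Prf1, Nkg7 and Ifng), without treated tumour 5 there were 2, and none was called without control tumour 1, 2, 3 or 8 or treated tumour 3, 4 or 7. Over these 16 fits 1761 to 3223 of all genes were called, against 2446 with all tumours.

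Before radiation some members were lower in primary tumours than in allografts. Under anti-PD-1 7 of 10 members were lower in the primary tumours, against 8.94% of all 17455 genes called, and the other 3 were not called. The largest estimate was that of Ifng (−3.19 ± 0.59, edgeR adjusted p = 0.00692), at 2 to 32 counts in these primary tumours and 56 to 174 in the allografts. Ifng passed the filter on low counts through the allografts, where it was higher, and was also called with no filter. Next came Gzmb (−2.68 ± 0.43, adjusted p = 0.00408), Gzmk (−2.25 ± 0.59, adjusted p = 0.0330) and Gzma (−2.14 ± 0.42, adjusted p = 0.00896). Prf1 (−1.89 ± 0.48, adjusted p = 0.0282), Nkg7 (−1.75 ± 0.45, adjusted p = 0.0305) and Fasl (−1.51 ± 0.36, adjusted p = 0.0225) were lower by less. Gzma, Gzmb and Ifng did not overlap between the kinds, and 3 members compare with 2.80% of all genes in that direction. Gzmb, for instance, was at 37.0 CPM or more in each allograft and at 30.9 CPM or less in each primary tumour. Gzmc, Gzmd and Gzme, with adjusted p of 0.566, 0.890 and 0.526, were the 3 members not called.

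T cell transcripts differed in the same direction. Of 8 T cell markers 3 were lower in the primary tumours (Cd3d, Cd3e and Cd8a, by 1.78 ± 0.42, 1.44 ± 0.42 and 2.02 ± 0.53 on the log2 scale), while of 6 NK cell markers 1 was lower (Klrd1). The T cell markers summed to 70.4 to 232 CPM in these allografts and to 26.1 to 124.2 CPM in the primary tumours. With the mean level of Cd3d, Cd3e and Cd3g as a covariate no member was called, and the calls over all 17455 genes went from 1560 to 179. The difference was then −0.20 ± 0.21 for Nkg7, −0.19 ± 0.29 for Gzmk, −1.57 ± 0.55 for Gzmb and −1.61 ± 0.62 for Gzma. The Cd3 level itself differed between the kinds, with a median log2 CPM of 4.315 in these allografts and 2.544 in these primary tumours. This fit therefore cannot separate the Cd3 level from the kind, and the part of T cells was not tested. With the identifier digit as a covariate, an alternative added after seeing the data, no member was called either, and 339 of all genes were. That digit was 5 in 3 of 4 allografts and in 1 of 8 primary tumours, and the difference was then −2.80 ± 0.96 for Ifng, −2.04 ± 0.63 for Gzmb and −1.93 ± 0.57 for Gzma. Without allograft 1 or 3 of this group, the richest in Gzmb, 3 members were called (Gzma, Gzmb and Ifng), and these were called in 12 of 12 such fits. Over these fits 634 to 1921 of all genes were called, against 1560 with all tumours.

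Under isotype at 0 Gy, 2 members were lower in the primary tumours, of 8 with a negative estimate, against 10.0% of all 17357 genes called: Gzmk (−1.89 ± 0.54, edgeR adjusted p = 0.0427) and Ifng (−2.86 ± 0.70, adjusted p = 0.0227). Ifng held 1 to 17 counts in these primary tumours and 12 to 93 in the allografts, through which it passed the filter on low counts. With no filter Ifng was called and Gzmk was not. Of the T cell markers 5 of 8 were lower, led by Cd3d (−2.26 ± 0.53), and of the NK cell markers 2 of 6 were higher (Klra8 by 3.52 ± 0.83 and Klrb1c by 2.58 ± 0.67). Nkg7 differed by −1.40 ± 0.51 (adjusted p = 0.104). With the Cd3 covariate no member was called, fewer of all genes were called than the 1738 without it, and the differences were 0.018 ± 0.53 for Gzmk and −0.81 ± 1.05 for Ifng. The part of T cells was not tested here either. The identifier digit was 5 in 4 of 4 of these allografts and in 0 of 8 primary tumours, so it and the kind cannot be told apart here. Without primary tumour 4 there were 5 called members (Gzmb, Gzmk, Nkg7, Fasl and Ifng), without allograft 1, 2 or 3 there were none, and without any 1 of the other 8 tumours Ifng alone was called. Calls over all genes also moved in these 12 fits, from 732 to 2187, against 1738 with all tumours.

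After 20 Gy edgeR called no member between the kinds. Members with an unadjusted p below 0.05 numbered 0 under isotype and 6 under anti-PD-1, and DESeq2 called 0 and 1 (Gzmb). Among all genes 4.76% were called under isotype and 0.00566%, a single gene, under anti-PD-1. Ifng differed by −1.43 ± 0.70 under isotype (edgeR adjusted p = 0.278), and under anti-PD-1 Gzmb differed by −1.87 ± 0.59 (adjusted p = 0.168) and Gzmk by −2.55 ± 0.88 (adjusted p = 0.190). For the 2 kinds to differ in their response to radiation, the interaction of kind with dose has to be called, and it was not for any member (edgeR called 0.00517% of 19327 genes under isotype and 0% under anti-PD-1, with 1914 and 922 genes at an unadjusted p below 0.05 and 5 and 3 called by DESeq2). For Gzmb the interaction was 0.09 ± 0.92 under isotype (adjusted p = 0.975), with a 95% interval from −1.71 to 1.89, and 0.85 ± 0.92 under anti-PD-1 (adjusted p = 0.991). For Prf1 under anti-PD-1 it was 1.67 ± 0.96 (adjusted p = 0.991), with an interval from −0.22 to 3.56. These intervals allow differences of several fold either way for Gzmb under isotype. Nor was the interaction of kind with the combined treatment called (0%; 1239 genes at an unadjusted p below 0.05, 4 called by DESeq2).

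**Figure D3:**
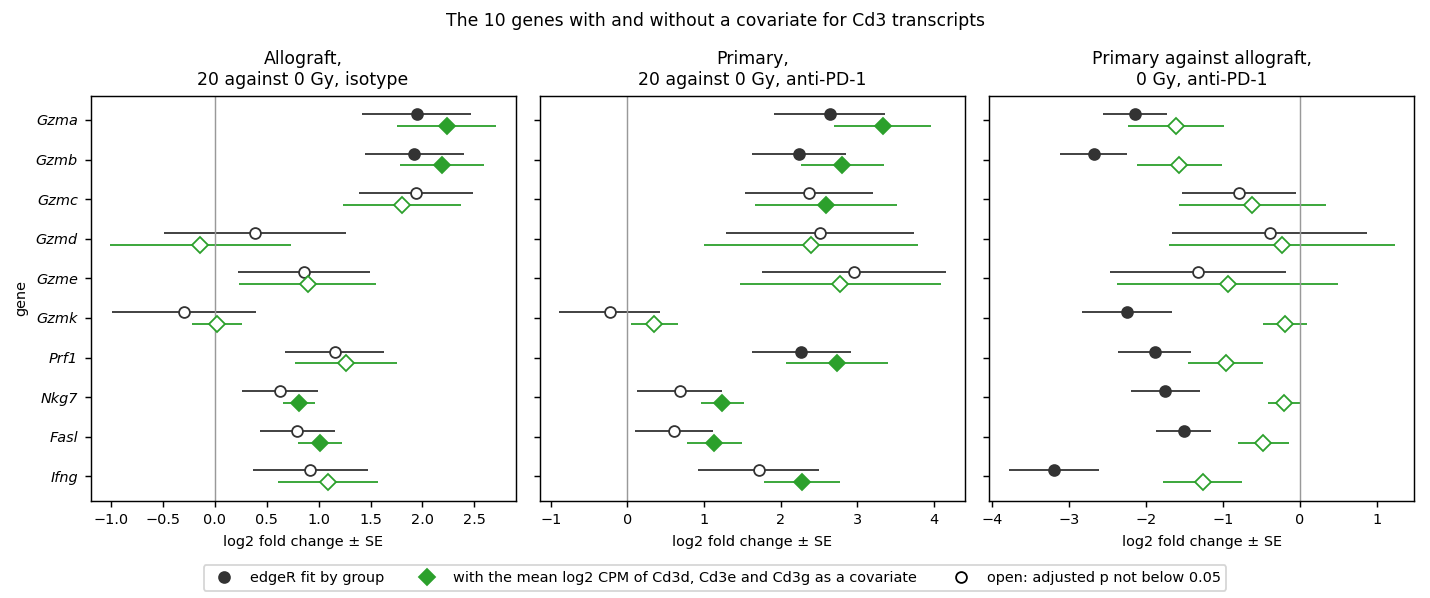
Log2 fold change ± SE (x axis) of the 10 genes (y axis) in 3 comparisons from the edgeR fit by group (circles) and with the mean log2 CPM of Cd3d, Cd3e and Cd3g as a covariate (diamonds), filled where the adjusted p was below 0.05. With the covariate the radiation estimates of Gzma and Gzmb stayed called, at 2.23 and 2.19 in the isotype allografts, whereas the 7 differences between primary tumours and allografts moved toward 0.

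T cell, NK cell and mast cell markers were set beside the rise of Gzma and Gzmb with radiation. None of 8 T cell markers was called by edgeR for radiation or for the combined treatment, in either kind (unadjusted p under 0.05 for 0 with radiation, and for 4 in allografts and 1 in primary tumours with both treatments), and their median log2 change at 20 Gy was 0.09 in isotype allografts and 0.80 in isotype primary tumours. Among 6 NK cell markers Ncr1, an NK receptor gene, rose in the allografts under isotype (1.24 ± 0.34, edgeR adjusted p = 0.0470) and under anti-PD-1 (1.48 ± 0.34, adjusted p = 0.0256). Its mean level was 1.82 ± 0.33 CPM (SD, n = 4) in the isotype group at 0 Gy and 4.22 ± 1.41 CPM at 20 Gy. With both treatments 4 NK markers were higher in the allografts (Ncr1, Klrk1, Klre1 and Klrb1c; median over the 6 of 1.97), and in the primary tumours Klrk1 rose under isotype (2.00 ± 0.60, adjusted p = 0.0228). Mast cells also hold granzymes, and the summed level of 6 mast cell markers was lower after radiation, at 5.32 to 40.8 CPM against 34.1 to 128.7 CPM in isotype allografts. The part of T cells, NK cells and mast cells in the change of Gzma and Gzmb was not tested. With the Cd3 covariate, the log2 changes of Gzma and Gzmb were 2.23 ± 0.48 and 2.19 ± 0.40 in isotype allografts and 2.35 ± 0.47 and 1.70 ± 0.40 in anti-PD-1 allografts. In primary tumours they were 1.80 ± 0.58 and 2.0 ± 0.50 under isotype, where that of Gzma was below its value without the covariate, and 3.33 ± 0.64 and 2.81 ± 0.54 under anti-PD-1. With it 7 members were called in anti-PD-1 primary tumours, where the calls over all 17770 genes also rose, from 1407 to 3157. In isotype allografts 4 were called, Nkg7 and Fasl joining Gzma and Gzmb, while the calls over all 17746 genes went from 912 to 1299.

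Part of the genes that handle the granules rose with radiation. Of 6 measured genes of granule release, 3 rose in isotype allografts (5.14% of all genes called), namely Stxbp2 (0.73 ± 0.15), Stx11 (0.93 ± 0.20) and Unc13d (1.07 ± 0.27), which act in docking and fusion of the vesicle. In isotype primary tumours, with 14.5% of all genes called, 5 of the 6 rose, among them Unc13d (1.27 ± 0.30). Under anti-PD-1 2 of the 6 rose in each kind, with 3.96% of all genes called in allografts and 7.92% in primary tumours. Serglycin (Srgn), the proteoglycan that packs granzymes, and Ctsc, the protease that activates them, both rose in isotype primary tumours (2.08 ± 0.40 and 0.97 ± 0.28), the 2 called of 7 other granule genes tested. These genes are also used by myeloid cells, and macrophage markers summed to 887 to 1414 CPM in unirradiated and to 1676 to 2454 CPM in irradiated isotype allografts, whose part in these changes was not tested.

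Of 5 listed serpin genes, whose action on granzymes was not examined here, some rose under isotype. EdgeR called none of them for radiation under anti-PD-1, where 2 in allografts and 4 in primary tumours had an unadjusted p under 0.05. In isotype primary tumours 3 of 5 were higher (14.5% of all genes called), Serpinb9 (0.97 ± 0.29), an inhibitor of granzyme B, Serpinb6b (1.55 ± 0.46) and Serpina3g (2.02 ± 0.60). In isotype allografts 1 of 5 was higher, Serpinb9b (1.33 ± 0.34), and with both treatments 4 of 5, against 5.14% and 9.66% of all genes called. On the side of death receptors Fas, the receptor of Fasl, rose in isotype primary tumours (1.52 ± 0.32), and Tnfsf10, which encodes the death ligand TRAIL, rose in both kinds (1.64 ± 0.36 for primary tumours and 1.47 ± 0.34 for allografts).

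Among genes that induce the cytotoxic program, Il27 and Il15, cytokines that act on T and NK cells, rose with radiation in isotype allografts (1.70 ± 0.34 and 1.47 ± 0.30) together with the transcription factor Eomes (1.35 ± 0.26), the 3 that rose of 14 against 5.14% of all genes called. In isotype primary tumours 6 of 13 rose, against 14.5%, led by Il27 (2.62 ± 0.49), Il18 (1.23 ± 0.28) and Il15ra (1.15 ± 0.28). Il2 and Il21 were at 0 counts in 17 and 14 of the 48 tumours.

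Ifng itself was not called by edgeR in any of the 4 radiation comparisons within an antibody. In the primary tumours it was called under isotype by DESeq2, in the fit of all 48 tumours and in that of the 2 groups (adjusted p = 0.0217, 0.0258 and 0.0368; 0.0217 to 0.0909 over 8 alternatives), and under anti-PD-1 with the Cd3 covariate. Of 13 genes of its receptor and targets, 8 rose in the primary tumours under anti-PD-1 (7.92% of all genes called) and edgeR called none in the allografts under anti-PD-1 (3.96%), where 2 had an unadjusted p under 0.05. In isotype primary tumours 8 of 13 rose (14.5%), led by Cd274 (2.90 ± 0.42), which encodes PD-L1, Gbp2 (1.92 ± 0.33) and Irf1 (1.5 ± 0.28). In isotype allografts 3 of 13 rose (5.14%), among them Cxcl10 (2.31 ± 0.49) and Cd274 (1.75 ± 0.40). EdgeR called the interaction of kind with dose for none of the 13 under either antibody (unadjusted p under 0.05 for 1 under isotype and 2 under anti-PD-1), so a difference between the kinds is not shown.

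Within a treatment group, tumours differed more than treatments did for several members, so the members were compared over the 32 primary tumours after removal of group means from log2 CPM. Of 45 pairs 34 were correlated, all positively (Benjamini-Hochberg adjusted permutation p below 0.05), with a median Pearson r of 0.659 and a range from −0.0696 to 0.984. Without the 2 tumours farthest from the median, 31 pairs passed. The pairs share libraries, and 1e-05 was the smallest p that the 100000 permutations could give. The share of correlated pairs among other genes was not computed, so this count is not shown to be particular to the members.

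The members fell along a line from Gzmd and Gzme at one end to Gzmk and Ifng at the other. Gzmd and Gzme were nearly proportional (r = 0.984, rho = 0.980, permutation p = 1e-05 for each, adjusted 3e-05 and 3.21e-05; r = 0.975 without the 2 farthest tumours), and Gzmc went with them (r = 0.927 with Gzmd, rho = 0.925, permutation p = 1e-05). These are the 3 genes with like sequences before their starts, printed above, and Gzmd and Gzme share a part of their transcript windows. Whether either bears on these correlations was not tested. At the other end Gzmk went with Nkg7 (r = 0.912, rho = 0.859, permutation p = 1e-05), and Nkg7 with Fasl (r = 0.953, rho = 0.936, permutation p = 1e-05). Gzmd had no detectable relation to Gzmk (r = 0.144, rho = 0.125, permutation p = 0.376 and 0.497) or to Ifng (r = −0.0369, rho = −0.033, permutation p = 0.817 and 0.851).

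Gzmb, Gzma and Prf1 lay between the ends. Gzmb was related to Gzma (r = 0.868, rho = 0.884, permutation p = 1e-05) and to Prf1 (r = 0.862, rho = 0.781, permutation p = 1e-05), with lower coefficients for Gzmc, its nearest member in the gene cluster (r = 0.667, rho = 0.616, permutation p = 0.00016 and 0.00035), and for Gzmd (r = 0.548, rho = 0.562, permutation p = 0.00121 and 0.00127). In the 16 allografts 6 of 45 pairs passed, among them Nkg7 with Fasl (r = 0.918, rho = 0.924, permutation p = 0.00012 and 0.00013) and Gzmc with Gzme (r = 0.841, rho = 0.874, permutation p = 0.00056 and 0.00019). Gzmd with Gzme did not (r = 0.533, rho = 0.488, permutation p = 0.0618 and 0.086).

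**Figure D4:**
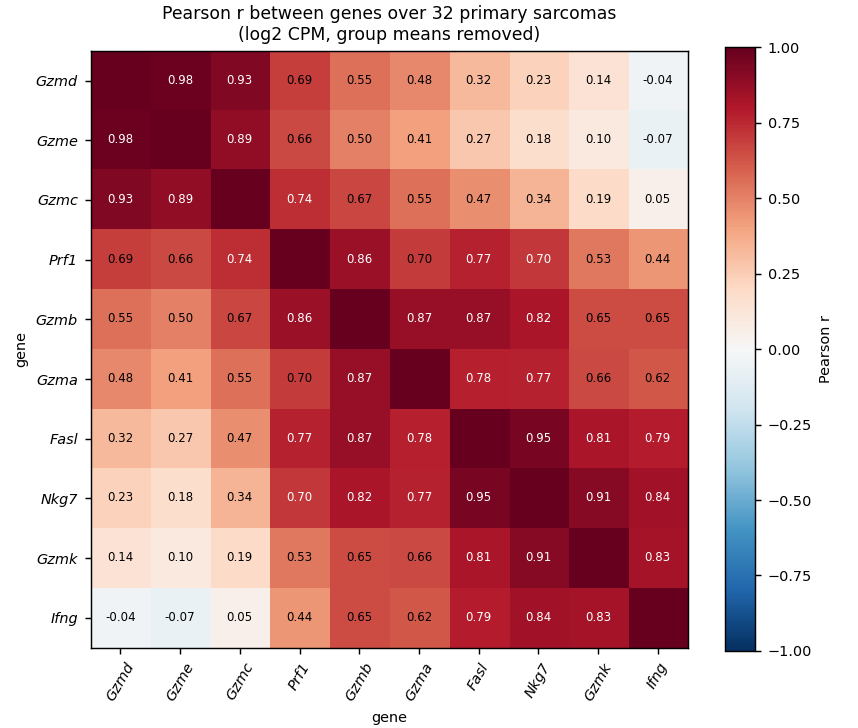
Pearson r between the 10 genes over 32 primary tumours, from log2 CPM with group means removed, printed in each square and shown as colour from −1 to 1. A block of Gzmd, Gzme and Gzmc stands at the upper left and a block of Fasl, Nkg7, Gzmk and Ifng at the lower right, with Prf1, Gzmb and Gzma between them.

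The same line appeared against lymphocyte markers in the primary tumours. Gzmk followed Cd3e (r = 0.906, rho = 0.833, permutation p = 1e-05; 30 relations of members with Cd3e, Cd8a and Ncr1, chosen after seeing the data) and Cd8a (r = 0.937, rho = 0.913, permutation p = 1e-05), and Ifng followed Cd8a (r = 0.889, rho = 0.896, permutation p = 1e-05). Gzmd was unrelated to Cd3e (r = −0.0776, rho = −0.0902, permutation p = 0.593 and 0.605), as was Gzmc (r = −0.0032, rho = −0.0612, permutation p = 0.986 and 0.741). Gzmb was closer to Ncr1 (r = 0.889, rho = 0.801, permutation p = 1e-05; r = 0.804 without the 2 farthest tumours) than to Cd3e (r = 0.559, rho = 0.446, permutation p = 0.00327 and 0.0141; r = 0.323 without them), and the difference between these coefficients was not tested. In the 16 allografts the order was the other one for Gzmb, with r = 0.137 for Ncr1 (rho = 0.235, permutation p = 0.724 and 0.409) and r = 0.638 for Cd3e (rho = 0.676, permutation p = 0.018 and 0.0149, adjusted 0.0599 and 0.0495). Gzmk followed Cd3e there too (r = 0.89, rho = 0.815, permutation p = 3e-05 and 0.00015). In the primary tumours Prf1 and Cd3e did not pass (r = 0.413, rho = 0.254, permutation p = 0.0374 and 0.18, adjusted 0.051 and 0.224; r = 0.102 without the 2 farthest tumours).

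**Figure D5:**
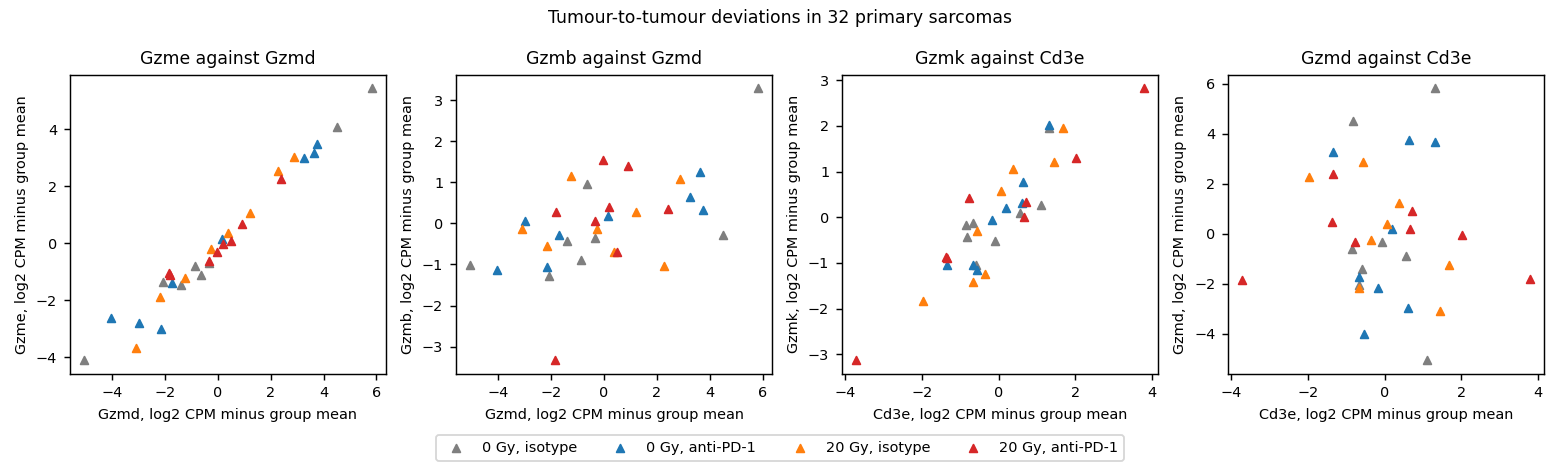
Log2 CPM minus the group mean of 4 pairs of genes in the 32 primary tumours, coloured by dose and antibody: Gzme against Gzmd, Gzmb against Gzmd, Gzmk against Cd3e and Gzmd against Cd3e. Points follow a line for Gzme against Gzmd (r = 0.984) and Gzmk against Cd3e (r = 0.906) and scatter for Gzmd against Cd3e (r = −0.0776).

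Among 14354 other genes averaging 1 CPM or more, the gene most like Gzmb in these deviations was Ncr1 (r = 0.889), followed by the class I histocompatibility genes B2m (0.862), H2-K1 (0.859), H2-T10 (0.849) and H2-D1 (0.841). The most alike gene was Klre1, an NK receptor gene, for Gzma (0.847), Cd8a for Gzmk (0.937), Ncr1 for Fasl (0.933), Ms4a4b for Nkg7 (0.961), Sh2d1b2 for Prf1 (0.872) and Slamf8 for Ifng (0.896). For Gzmc, Gzmd and Gzme it was in each case Gzmf, a further granzyme of the chromosome 14 cluster (0.912, 0.983 and 0.974). These coefficients describe the same 32 tumours, are the highest of many, and carry no test.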

How the data were processed

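The authors deposited 1 table of raw read counts per Ensembl gene (36854 genes, 48 tumours), whose name refers to a first run. Per the submitters' processing notes, reads were trimmed with Trimmomatic 0.36, aligned with STAR 5.5.4b to mm10 and counted with HTSeq; the annotation and the strand setting are not given in the sources used here. Per the labels' protocols, libraries were poly(A)-selected and strand-specific. Symbols came from GENCODE M21, which named 36796 genes.

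Genes were filtered by group (filterByExpr), scaled by TMM and tested with edgeR 4.0.16 (quasi-likelihood F test, R 4.3.3), with Benjamini-Hochberg adjustment over all genes tested and calls at an adjusted p below 0.05. The 4 groups of a kind shared 1 fit, comparisons between kinds used the 2 groups alone, and interactions with kind all 48 tumours. SE is the log2 fold change divided by the square root of F, and intervals are 1.96 SE either way. Correlations used log2 CPM with a prior count of 2 and permutation within groups. The edgeR and correlation steps were tested on simulated data. Alternatives covered DESeq2 1.42.0 (test and size factors), no filter, other fits, covariates and leaving out each tumour. Replicate numbers follow accession order and only name tumours, and nothing in the labels excludes shared litters, so p-values measure the spread between these tumours. Named genes were the 10 members, up to 3 genes of a list by smallest p, and the most alike genes; 1 gene of a list is not reported by name here. The members and lists were chosen with earlier results of these data known.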

Additional observations from a re-analysis of the deposited data

Results flagged for a closer look

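Of 80 sets of 1 member in 1 group, 3 held a tumour far from the others on the log2 CPM scale by Dixon's test, in which chance alone marks about 1 group in 20. Gzmc in allografts given 20 Gy with anti-PD-1 was lowest in tumour 3 (19.3 CPM, the other 3 at 44.5 to 45.2 CPM), with a gap over the range of 0.914 against a critical value of 0.829. Gzmk in primary tumours given 0 Gy with isotype was highest in tumour 4 (3.62 CPM, 0.565 against 0.526), the tumour that led its group for all 10 members. Gzmb in primary tumours given 20 Gy with anti-PD-1 was lowest in tumour 5 (4.91 CPM, 0.537 against 0.526).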

How the results depend on the processing

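No paired analysis was possible because replicate numbers follow accession order and pair no tumours. Member counts called that moved by over 1.5 times were, against 2 in allografts for 20 Gy with isotype, 1 with DESeq2 size factors, 4 with the Cd3 covariate, 0 with the identifier digit, 0 in the fit of all 48 tumours and 1 in the fit of the 2 groups; against 1 with anti-PD-1, 2 with the DESeq2 test, 0 with Xist, 3 with Cd3 and 0 in the 48-tumour and in the 2-group fit; and against 5 for the combination, 0 in the 48-tumour fit and 3 in the 2-group fit. In primary tumours they were 4 (DESeq2 test and 48-tumour fit) against 2 for isotype, 5 (DESeq2 test) and 7 (Cd3) against 3 for anti-PD-1, and 2 (DESeq2 test and 48-tumour fit), 3 (Cd3) and 0 (2-group fit, where Ifng failed the filter) against 1 for the combination. Between kinds they were 1 (no filter), 1 (Xist) and 0 (Cd3) against 2 for isotype and 0 (Cd3, and the identifier digit, added after seeing the data) against 7 for anti-PD-1 at 0 Gy, and 1 (DESeq2 test, Gzmb) against 0 for anti-PD-1 at 20 Gy. Gzma in primary tumours lost its call in the 2-group fit for isotype, where Ifng was called instead, and with the identifier digit for anti-PD-1. The cause of these shifts was not tested. The 16 allografts gave 6 correlated pairs against 34.

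Leaving out 1 tumour gave 0 to 2, 0 to 1 and 2 to 5 called members in allografts, 0 to 6, 1 to 4 and 0 to 5 in primary tumours (isotype, anti-PD-1, combination), and 0 to 5 and 3 to 7 between kinds at 0 Gy. Anti-PD-1 comparisons and interactions stayed at 0 members in each setting run. Directions were followed for 52 log2 fold changes of members only, and 4 reversed, all with the Cd3 covariate. Gzmk turned to −0.20 for anti-PD-1 at 20 Gy in allografts. Between kinds under isotype at 0 Gy, Gzmk turned to 0.018 and Nkg7 to 0.25. The interaction of kind and dose under isotype turned to −0.17 for Gzmb, and ran from −0.35 to 1.34 without 1 tumour. Under 2 other scalings all 160 group means moved by less than 1 SD. The identifier digit could not be fitted between kinds under isotype at 0 Gy, where it splits as the kinds do, nor the 2-group fit to interactions. Depth limits Ifng, Gzmd, Gzme and Gzmk, at a few counts in the lowest primary tumours.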
